A study of Mus musculus with 4 samples.

Results

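The cells described here are endocardial cells of mouse embryonic hearts, from the sheet of endothelium that lines the inside of the heart wall. They are labelled ventricular, and that position could not be checked. A cell was counted as endocardial when it held UMIs (unique molecular identifiers, each standing for 1 captured transcript) of at least 2 of the 7 genes Npr3, Plvap, Adgrg6, Ednrb, Klhl4, Tmem100 and Cytl1, and at least 1 UMI of the endothelial genes Pecam1, Cdh5, Egfl7, Emcn or Ramp2. It also had to hold more UMIs of the first set than of 7 coronary endothelial genes led by Fabp4, fewer than 2 UMIs of 7 valve endothelial genes led by Stmn2, and less than 1% of its UMIs from the cardiomyocyte genes Tnnt2, Actc1, Myh6 and Myh7. The rule found 2091 cells among 24849 deposited cells, of which 21495 passed the filters on depth and mitochondrial RNA. The same genes, used the other way round, gave 495 coronary endothelial and 279 valve endothelial cells for comparison.

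The endocardium forms early in heart development and stays in direct contact with blood. It signals to the muscle beneath it through ligands such as neuregulin 1 (Nrg1), and it supplies cells to the valves and part of the coronary vessels. The Hippo kinases Lats1 and Lats2 restrain the transcriptional co-activators Yap and Taz, and so limit growth programmes in many cell types.

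The hearts were dissociated and single cells were profiled by Drop-seq, in which each cell is lysed in a droplet with a barcoded bead. Controls were Wt1 CreERT2/+; Rosa26mTmG/+ embryos and mutants, called Lats1/2 CKO, were Wt1 CreERT2/+; Lats1/2 F/F; Rosa26mTmG/+ embryos, at 2 stages named by embryonic day, E13.5 and E14.5. The series' design text gives a slightly different day for the earlier stage, and the day in the sample titles was used. Both genotypes therefore carried the Wt1-driven, tamoxifen-inducible Cre and the membrane Tomato to membrane GFP reporter, and only the mutants carried the floxed Lats1 and Lats2 alleles. Wt1 is best known as a gene of the epicardium, the outer layer of the heart. There was 1 library for each genotype and stage, and the number of embryos behind each library and the tamoxifen schedule are not given in the sources used here. Values below are listed for the E13.5 libraries first (control, then Lats1/2 CKO) and the E14.5 libraries after them (again control first). Unless stated otherwise they are CPM, counts per 1e+06 UMIs, summed over the endocardial cells of a library.

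The endocardial cells numbered 597, 755, 319 and 420 in these libraries, with 1307964, 1833431, 448599 and 661426 UMIs in all and a median of 1475, 1972, 1053 and 1017.5 UMIs per cell. Coronary endothelial cells were deeper, with medians from 1532 to 2892. Several features set libraries apart. The male transcript Ddx3y stood at 96.3, 67.6, 2.23 and 49.9 CPM in the endocardial cells, so the control E14.5 library held little male RNA. Ribosomal protein genes such as Rps12 stood far higher at E14.5, as described with the stages. The median mitochondrial share was 2.87%, 2.72%, 2.79% and 4.77%, highest in the Lats1/2 CKO E14.5 library. Of the barcodes, 14 occurred in more than 1 library, and 0 of these belonged to an endocardial cell.

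The genes that chose the cells are a description and were not tested. Npr3, the clearance receptor for natriuretic peptides, stood at 891, 852, 945 and 1002 CPM in the endocardial cells, against 24.7, 25.7, 14.2 and 14.2 CPM in coronary endothelium. Ednrb, the endothelin B receptor, stood at 2464, 1974, 2111 and 2289 CPM, against 299, 336, 298 and 432 CPM. Plvap, which builds the diaphragms of endothelial pores, stood at 847, 1028, 858 and 818 CPM, against 200, 142, 162 and 117 CPM. For all 3 genes the 4 endocardial values lay above the 4 coronary values. Klhl4 was the least distinct, at 658, 514, 468 and 444 CPM against 450, 257, 259 and 179 CPM, where the E13.5 control coronary value fell inside the endocardial range. Cytl1, which encodes a secreted cytokine-like protein, had 0 UMIs in coronary cells but stood at 137, 184, 71.9 and 134 CPM in valve cells, against 84.9, 90.0, 75.8 and 90.7 CPM in the endocardial cells. The pan-endothelial gene Pecam1, an adhesion molecule of vessel walls, was at 439, 628, 535 and 428 CPM, and the coronary gene Fabp4, a fatty acid carrier, was at 46.6, 64.9, 78.0 and 33.3 CPM, against 5241, 5216, 4909 and 4991 CPM in coronary cells.

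**Figure D1:**
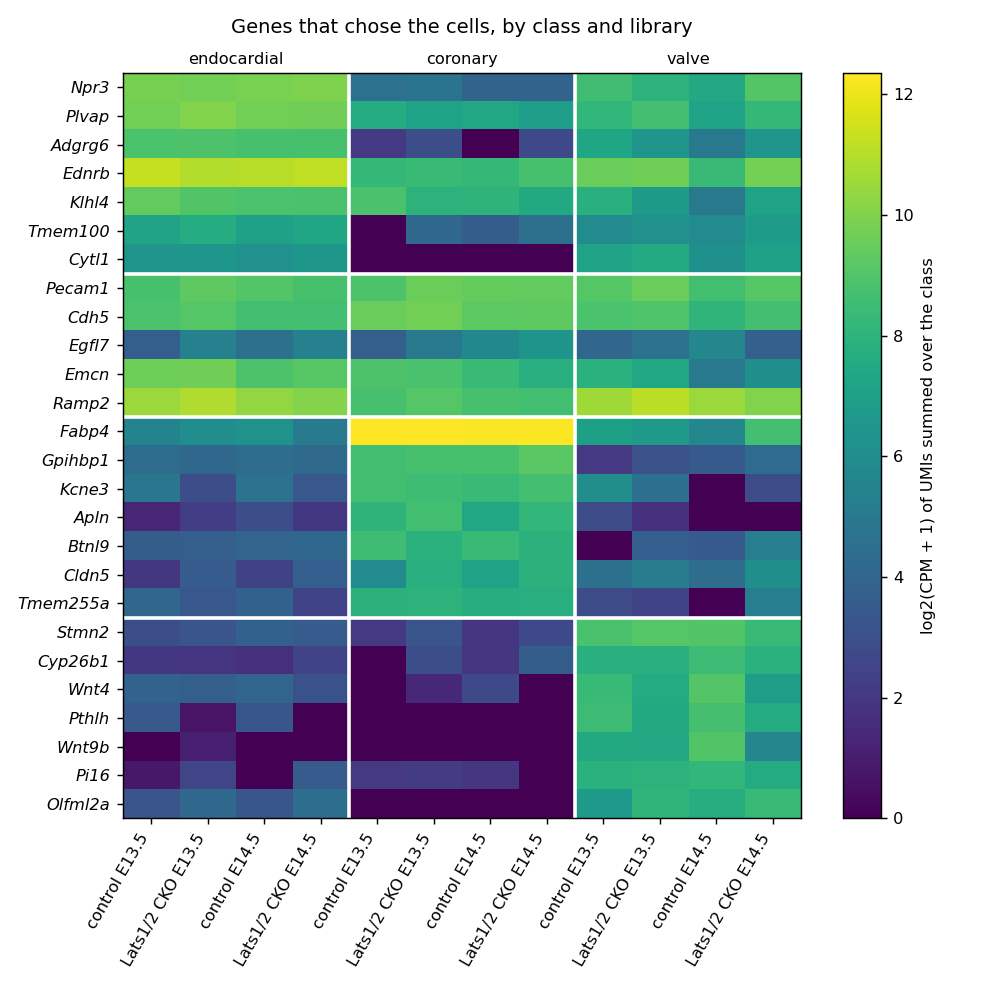
Colour gives log2(CPM + 1) of the 26 genes of the membership rule (rows, in blocks of 7 endocardial, 5 pan-endothelial, 7 coronary and 7 valve genes; the 4 cardiomyocyte genes are not drawn), for UMIs summed over each class in each of the 4 libraries (columns). Npr3 stays between 852 and 1002 CPM in the endocardial columns and at or below 25.7 CPM in the coronary columns, and Fabp4 shows the opposite.

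To compare cells at one depth, each cell was thinned to 500 UMIs. Npr3 was then seen in 37.9% of the endocardial cells (68.6% before thinning), in 1.62% of coronary, 12.2% of valve and 0.773% of cardiomyocyte-rich cells. The last is the background share in cells that should lack the gene, whose median depth was 1159 to 2876 UMIs over the libraries. Over the libraries the endocardial cells held a mean of 3.68 of the 7 set genes, and 24.0% held exactly 2, the least the rule allows. That share was 18.6% and 17.7% in the E13.5 libraries and 35.1% and 34.5% in the shallower E14.5 ones. Cells just inside the rule, with 2 set genes (502 cells), had 413 CPM of Pecam1, 1230 CPM of the fibroblast collagen Col1a1 and 917 CPM of the matrix gene Postn. Cells just outside it, with 1 set gene (666 cells), had 221 CPM of Pecam1, 874 CPM of Col1a1 and 2075 CPM of Postn.

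The endothelial identity of the label is a product of the rule. For the ventricular position, the labels give whole heart tissue, and no list separates ventricular from atrial endocardium here. Some cells carried transcripts of other cell types. Of the 2091 cells, 126 (6.03%) were marked, meaning that at least 1% of their UMIs came from a list of fibroblast and mesenchyme genes or that they held at least 2 genes of the epicardial, mural or macrophage lists. Marked cells were 5.36%, 7.28%, 6.58% and 4.29% of the endocardial cells of the 4 libraries. They had 2551 CPM of Col1a1, against 34.5 CPM in the 1965 others, and 556 CPM of the mesothelial gene Upk3b, against 4.04 CPM in the others. Their Pecam1 level was 212 CPM. Every class comparison below was also computed without marked cells in any class. Myosin light chain and other cardiomyocyte transcripts were wider spread: 1215 endocardial cells held at least 2 genes of the cardiomyocyte list. At least 2 genes of the erythroid list were held by 830 endocardial cells, and of the fibroblast and mesenchyme list by 812. The mark used no cardiomyocyte or erythroid genes and set a share of UMIs for fibroblast genes. Cells left after removing the marked ones can therefore still hold such transcripts. No doublet caller was run, and the part of mixed cells and free RNA in these values was not tested.

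Among the endocardial cells themselves, genes were ranked by how much they varied from cell to cell within a library beyond counting noise, as the variance of thinned counts over their mean, taking the lowest of the 4 libraries. The ranking covered 1515 genes. Globin genes such as Hbb-y and the mitochondrial transcript mt-Rnr2 came first. The leading gene after these was Igfbp5, a secreted binder of insulin-like growth factors, for which the ratio lay between 2.59 and 3.47. Next ranked H19_Mir675, the elastin gene Eln, Gm27694_Malat1, Cdkn1c, the growth factor gene Ptn, the collagen genes Col3a1 and Col1a2, and the proliferation gene Top2a. The ranking included the marked cells, which had 4119 CPM of Col3a1 against 593 CPM in the others. Their part in the ranking was not tested.

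The levels of some of these genes were set against the cell cycle. Among unmarked endocardial cells, those with at least 2 of the G2 and M phase genes had 2158, 2452, 2928 and 2311 CPM of Igfbp5 at 500 UMIs per cell, while those with none had 4274, 4537, 4347 and 3916 CPM. The values of the cycling cells lay below those of the others in each library. Cdkn1c, an inhibitor of cyclin-dependent kinases, was at 6228, 3493, 5536 and 4289 CPM in cycling cells against 7628, 4802, 6099 and 5389 CPM in the others. Igf2 was at 9561, 8849, 7362 and 7756 CPM in cycling cells against 11986, 10531, 9521 and 10802 CPM in the others. H19_Mir675, Ednrb, Npr3 and Plvap were also lower in cycling cells in each library, so this order was not particular to Igfbp5 and Cdkn1c. Emcn, Col3a1, Nts and Ptn kept no single order over the libraries. Hapln1, which links hyaluronan in the cardiac jelly, was lower in cycling cells only in the Lats1/2 CKO E14.5 library. It stood at 456, 370, 203 and 88.9 CPM in cycling cells against 281, 184, 165 and 132 CPM in the others. These values compare cells within libraries and carry no test. Finding G2 and M genes also uses up some of a cell's 500 UMIs, and that part of the difference was not tested.

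Against coronary endothelium most tested genes of a list of known endocardial genes were higher in the endocardial cells, and most of the cell cycle and glycolysis lists were lower. The question was what sets the heart's inner lining apart from its vessels, and the fit used the 8 summed profiles with the library as a block, leaving out the genes of the rule. Of 8985 genes tested, 1750 (19.5%) were higher and 1643 (18.3%) lower, together 37.8%, in endocardial cells at an adjusted p under 0.05 (edgeR quasi-likelihood test, Benjamini-Hochberg adjustment), with a median log2 difference of 0.0076 over all genes. Both classes were chosen by genes read in the same cells, so these p-values describe how steadily the chosen sets differed over 4 libraries, and they are no independent evidence that the sets are cell types. Without the Lats1/2 CKO E13.5 library 1161 genes were higher and 1167 lower.

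The higher genes with the greatest differences were of several kinds. Smoc1, a secreted calcium-binding matrix protein, stood at 121, 154, 136 and 142 CPM in endocardial cells and at 0, 3.43, 2.84 and 0 CPM in coronary cells. Over the libraries this was 596 UMIs against 3, a ratio of 75.3 with a counting interval from 25.6 to 366. Cdh11, a cadherin of mesenchyme and endocardium, stood at 1338, 988, 903 and 789 CPM against 37.0, 17.1, 28.4 and 25.6 CPM, a log2 difference of 5.30 ± 0.14 (SE). Col13a1 and Col23a1, transmembrane collagens, had log2 differences of 5.61 ± 0.29 and 5.57 ± 0.27. No endocardial value of these genes overlapped a coronary value, but they were chosen for large differences with the same sign in all 4 libraries.

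The other genes reported for their size were Tmem108 (log2 difference 5.54), Olfml3 (5.31), Bace2 (5.24), the soluble lectin Colec11 (4.98), Gbp4 (4.87), Prr15 (4.83), the homeobox gene Irx5 (4.78), Nkain4 (4.74), Upk3b (4.70) and Ccdc3 (4.65). All of them except Upk3b stayed past the threshold without marked cells. Upk3b stood at 83.3, 42.5, 95.9 and 132 CPM in all endocardial cells and at 0.889, 2.48, 7.55 and 12.3 CPM in the unmarked ones, where it was too low to be tested.

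**Figure D2:**
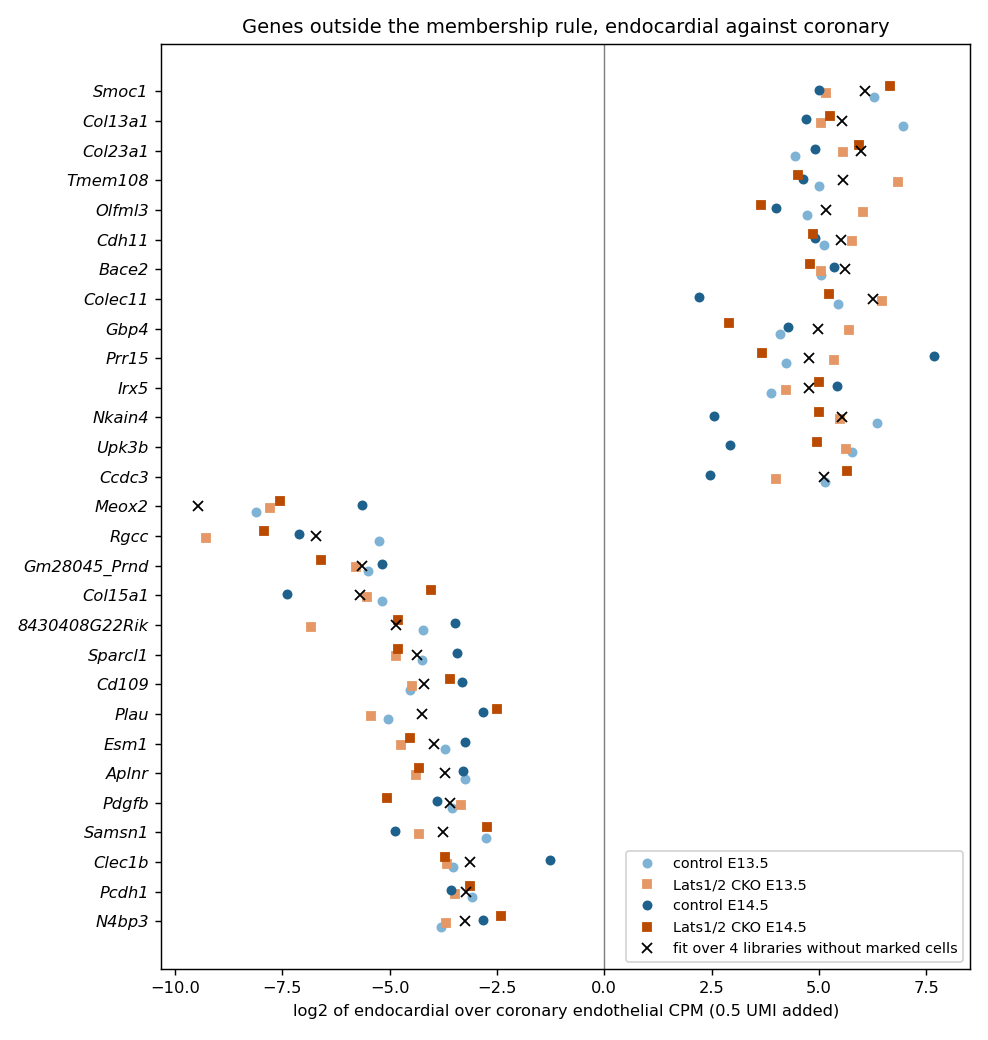
Log2 of endocardial over coronary endothelial CPM (0.5 UMI added) for the genes reported for their size, those with the greatest fitted log2 difference in each direction; circles are control and squares Lats1/2 CKO libraries, and crosses are the fit over the 4 libraries without marked cells. Every library lies on the same side of 0 for each gene because only such genes were chosen. Upk3b has no cross because it was too low to be tested without marked cells.

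Of a list of known endocardial genes, 12 of the 14 tested were higher and 1 lower, with a median log2 difference of 2.46. Over all genes tested 19.5% were higher and 18.3% lower. Most of these were transcription factors of heart formation. Gata4 stood at 79.5, 103, 71.3 and 90.7 CPM against 6.17, 17.1, 22.7 and 2.84 CPM in coronary cells (log2 difference 2.80 ± 0.29). Hand2 stood at 141, 204, 203 and 187 CPM against 9.25, 13.7, 11.4 and 17.1 CPM (3.86 ± 0.22). Both genes were higher in endocardial cells in all 4 libraries, with no overlap. Gata5, Gata6 (2.59), Tbx20 (2.71) and Foxc1 (3.28) were also higher, and Nfatc1, a calcium-regulated factor of endocardium and valves, was higher by 1.76 ± 0.26. Hapln1 was higher by 2.32 ± 0.16, and Ece1, which activates endothelin, by 2.26. The lower gene was the ligand Bmp2 (-1.04 ± 0.37), and without marked cells it was too low to be tested.

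Among ligands through which endocardium signals to muscle and vessels, 7 of the 18 tested were higher and 5 lower, with a median of -0.09. The shares over all genes tested were 19.5% higher and 18.3% lower. Nrg1 was found only in endocardial cells of the 2 classes, at 29.1, 23.5, 24.5 and 18.1 CPM. Its 104 UMIs against 0 in coronary cells made it at least 13.1-fold higher, taking 3 UMIs over the coronary class as the floor. Igf1, a growth factor, stood at 634, 433, 522 and 314 CPM against 207, 111, 134 and 134 CPM (1.75 ± 0.11). Tgfb2, a ligand of epithelial to mesenchymal change in the cushions, stood at 159, 177, 167 and 186 CPM against 33.9, 29.1, 31.3 and 36.9 CPM (2.45 ± 0.18). The lower ligands included Pdgfb (-3.74), which recruits pericytes, and Angpt2 (-2.94), which loosens vessels.

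Of the VEGF and angiopoietin list, ligands and receptors together, 4 of the 12 tested were higher and 7 lower (median -0.69). For this and the next lists, the shares over all genes tested were 19.5% higher and 18.3% lower. Kdr, the main VEGF receptor, stood at 424, 386, 372 and 304 CPM against 829, 715, 696 and 668 CPM (-0.94 ± 0.08), and Tek, the angiopoietin receptor, at 375, 518, 419 and 413 CPM against 74.0, 125, 125 and 119 CPM (2.00 ± 0.12). The 2 receptor genes thus lay in opposite directions in all 4 libraries. Of the BMP and TGF-beta list, 10 of the 17 tested were higher and 3 lower (median 0.72), among them the receptors Bmpr1a (4.26) and Tgfbr3 (3.21), the matrix binder Ltbp1 (3.69) and the target Id2 (3.20 ± 0.11), while the receptor Acvrl1 was lower (-2.11). Of the Notch list, 2 of the 10 tested were higher and 5 lower (median -0.59), so the higher count was near the 19.5% of all genes. The ligand Dll1 stood at 51.2, 49.1, 44.6 and 40.8 CPM against 9.25, 1.71, 0 and 0 CPM (4.16 ± 0.46), and the ligand Dll4, of arterial and tip cells, at 34.4, 23.5, 17.8 and 18.1 CPM against 114, 90.8, 54.0 and 71.1 CPM (-1.80 ± 0.21). The target Hey1 was lower by 2.05 on the log2 scale (-2.05 ± 0.26), and the Notch modifier Mfng had a log2 difference of -2.68.

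Genes that respond to blood flow were higher more often than lower: 8 of the 14 tested were higher and 1 lower, with a median of 0.54. Among all genes tested 19.5% were higher and 18.3% lower. Klf2, the best known flow-responsive factor, stood at 326, 194, 214 and 177 CPM against 108, 77.1, 117 and 114 CPM (1.18 ± 0.14). Thbd, the anticoagulant thrombomodulin, stood at 86.4, 72.0, 75.8 and 68.0 CPM against 21.6, 25.7, 11.4 and 17.1 CPM (1.94 ± 0.25). The lower gene was Cav1, the coat protein of caveolae, at 330, 277, 183 and 148 CPM against 1603, 1196, 841 and 927 CPM (-2.25 ± 0.09). Of the basement membrane list, 4 of the 13 tested were higher and 8 lower (median -0.43). Agrn was higher by 1.57 ± 0.14, Col4a1 had a log2 difference of -0.44 ± 0.07, and Col15a1 one of -5.44 ± 0.31.

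The growth-restraining gene Cdkn1c was among the genes with the most steady difference. It stood at 6525, 4148, 5488 and 4891 CPM in endocardial cells and at 623, 317, 671 and 452 CPM in coronary cells, a log2 difference of 3.42 ± 0.08. Igfbp5 stood at 2921, 3471, 3457 and 3080 CPM against 142, 363, 159 and 375 CPM (3.67 ± 0.12). Neither gene's endocardial range came near the coronary one. Cdkn1c lies at chr7:143458339-143461050 on the minus strand (GRCm38, GENCODE vM21), in the imprinted cluster that also holds Kcnq1ot1 (chr7:143203458-143296549), Igf2 (chr7:142650766-142666816) and H19 (chr7:142575529-142578143). The growth factor gene Igf2 stood at 10666, 9306, 8399 and 9274 CPM against 3885, 2801, 2859 and 3135 CPM (1.61 ± 0.05). The noncoding RNA H19 stood at 10502, 10362, 11032 and 10400 CPM against 3068, 2415, 3158 and 3061 CPM (1.90 ± 0.05), and Kcnq1ot1 was higher by 1.80 ± 0.13. Kcnq1ot1, Igf2 and H19 were singled out after their values were seen. The table counts H19_Mir675, where H19 overlaps a microRNA, as a feature of its own, and overlapping transcripts were not separated further here.

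Cell cycle genes were lower, in a comparison where 19.5% of all genes tested were higher and 18.3% lower. Of 22 G2 and M phase genes tested, 21 were lower and 1 (Smc4) higher, with a median of -0.79, and of 20 S phase genes 14 were lower and 0 higher, with a median of -0.61. Mki67 stood at 225, 200, 198 and 236 CPM against 376, 394, 344 and 318 CPM (-0.73 ± 0.10), and Top2a at 382, 329, 343 and 419 CPM against 623, 578, 571 and 676 CPM (-0.71 ± 0.08). The endocardial values lay below the coronary ones in all libraries for both. At 500 UMIs per cell, 20.6%, 21.2%, 23.8% and 23.1% of the endocardial cells held at least 2 G2 and M genes, against 59.3%, 49.3%, 54.4% and 50.3% of the coronary cells. Without thinning the endocardial shares were 43.2%, 48.3%, 44.2% and 46.2%. For at least 2 S phase genes the thinned endocardial shares lay between 11.6% and 16.3% and the coronary ones between 20.4% and 35.9%. Coronary cells had more UMIs per cell before thinning, and free cell cycle RNA was not tested as a part of these shares.

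**Figure D3:**
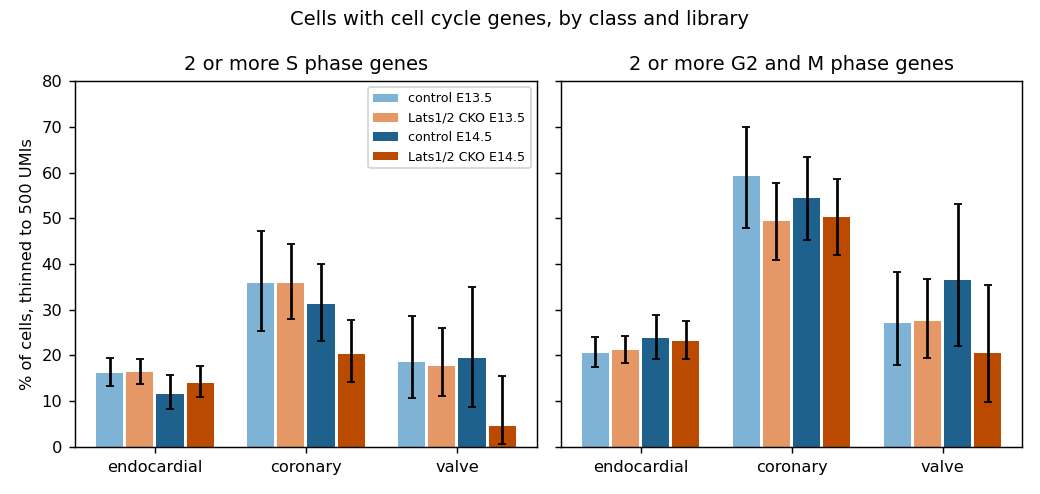
Bars give the share of cells in each class and library with at least 2 S phase genes (left) or at least 2 G2 and M phase genes (right) after thinning to 500 UMIs, with exact 95% binomial intervals that cover counting error only. The endocardial G2 and M shares lie between 20.6% and 23.8% and the coronary ones between 49.3% and 59.3%, while valve shares have wide intervals.

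Glycolysis and hypoxia genes were lower with little exception: 13 of the 15 tested were lower and 0 higher, with a median of -1.42. Ldha, which makes lactate, stood at 440, 489, 419 and 484 CPM against 1230, 1380, 878 and 1179 CPM (-1.32 ± 0.08). The glucose transporter gene Slc2a1 (-1.42 ± 0.23), Pgk1 (-1.62 ± 0.23) and the vessel dilator Adm (-4.09) were lower as well. Vegfa (-0.24) and Higd1a (-0.45) did not pass the test. Of 11 known coronary genes tested outside the rule, 9 were lower and 2 (Fabp5 and Gja4) higher, with a median of -3.32. For this list and the glycolysis list, the shares over all genes tested were 18.3% lower and 19.5% higher. The tip cell gene Esm1 (-4.17), the apelin receptor Aplnr (-3.84) and the fatty acid transporter Cd36 (-3.32 ± 0.15) were among the lower ones. Meox2, a homeobox gene of fatty acid transport in capillaries, had 1 UMI in all endocardial cells and 209 in coronary cells, a ratio of 551 with a counting interval from 97.9 to 21882. Rgcc (-6.93), Gm28045_Prnd (-5.75), 8430408G22Rik (-4.87), Sparcl1 (-4.29), Cd109 (-4.23), Plau (-4.21), Samsn1 (-3.58), Clec1b (-3.37), Pcdh1 (-3.36) and N4bp3 (-3.32) completed the genes named for their size.

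Markers of other cell types moved with this comparison, in which 19.5% of all genes tested were higher and 18.3% lower. Of 10 fibroblast and mesenchyme genes, 9 were higher in endocardial cells and 0 lower. Without marked cells 5 of the 8 tested were higher (Col1a2, Col3a1, Lum, Pdgfra and Postn), and Col1a1 went from 3.03 to -0.06. Of 6 epicardial genes tested, 5 were higher and 1 lower, and without marked cells only Wt1 could be tested and it was lower. Of 12 cardiomyocyte genes, 9 were higher and 1 lower, led by Myl7 (1.65). Of 15 immediate early response genes, Egr1, Fos and Fosb were higher and 4 lower, and without marked cells 0 were higher and 6 of 14 lower. The part of these cells in the other gene groups was not tested beyond leaving the marked cells out, after which 1441 of the higher and 1470 of the lower genes kept their call.

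Against valve endothelium fewer genes passed the test. This comparison uses the same endocardial sums as the one with coronary cells. Of 8392 genes tested, 337 (4.02%) were higher and 458 (5.46%) lower, together 9.47%, in endocardial cells at an adjusted p under 0.05 (edgeR, Benjamini-Hochberg adjustment), with a median log2 difference of 0.023. Cdkn1c was again higher, at 2.25 ± 0.10, with valve values of 1582, 1011, 811 and 1096 CPM, while Igf2 (-0.04 ± 0.06) and H19 (-0.07 ± 0.06) did not pass. Without the control E13.5 library 155 genes were higher and 241 lower, and without the Lats1/2 CKO E13.5 library 180 and 250. The valve sums rested on 41 to 113 cells per library.

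The genes named as higher than in valve cells were Upk3b (4.17), Colec11 (3.21), Pkdcc (3.02), the guanylate cyclase gene Gucy1a3 (2.92), Col1a1 (2.85), Ccdc3, Pla2g7 (2.59), Dsg2, Mfap4, Ppp1r14c, Icam1, Cdkn1c (2.25), Hs6st2 and Tmem88 (2.22). Pkdcc, which encodes a secreted kinase, stood at 42.1, 42.0, 71.3 and 71.1 CPM against 6.39, 7.27, 0 and 6.37 CPM. Tmem88, a membrane protein of Wnt signalling, stood at 214, 260, 163 and 245 CPM against 47.9, 38.8, 10.3 and 108 CPM in valve cells, and at 499, 614, 514 and 534 CPM in coronary cells. The endocardial level of Tmem88 thus lay between those of the other classes. Upk3b and Mfap4 were too low to be tested without marked cells, and Col1a1 then differed by 1.45.

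Lower than in valve cells were Nppc, which encodes C-type natriuretic peptide, with 2 UMIs in endocardial cells and 104 in valve cells (a ratio of 226 with a counting interval from 60.9 to 1888), Ptprr (-6.46), Anxa8 (-5.71), Serpinb9b, Fxyd7, Lgals7, the protease Adamts8 (-4.35), Nptx1, Plek2, Pgf (-3.98), Ccdc141 (-3.98), Dkk2, the Notch target Hey2 (-3.78), Crabp2 and the water channel Aqp1 (-3.46). Hey2 stood at 6.88, 7.64, 13.4 and 15.1 CPM against 144, 133, 185 and 89.2 CPM.

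Several lists that were higher than in coronary cells were lower than in valve cells. Of the known endocardial genes 3 of 13 were higher and 6 lower (median -0.57). Over all genes tested against valve cells 4.02% were higher and 5.46% lower. Hapln1 had valve values of 1706, 1139, 1633 and 606 CPM (-2.51 ± 0.13), Nfatc1 of 265, 230, 298 and 178 CPM (-1.52 ± 0.16), and Tbx20 and Gata4 differed by -1.27 and -0.95. Flow-responsive genes were lower in 6 of 14 and higher in 0 (median -0.35), with Klf2 at 1093, 676, 668 and 370 CPM in valve cells (-1.58 ± 0.13) and Klf4 at -2.11. Of the immediate early genes, 10 of 15 were lower and 0 higher (median -0.94). Basement membrane genes were higher in 5 of 13 and lower in 0, with Col4a1 at 0.93 ± 0.12. Of 22 G2 and M genes 1 was higher and 0 lower, of the S phase genes 0 passed in either direction, and of the glycolysis list 1 gene (Vegfa, -1.65) was lower. For Klf2, Hapln1 and Nfatc1 the endocardial level lay between the coronary and the valve level in all 4 libraries.

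The Lats1/2 CKO was compared with control within each stage and in a fit with the stage as a term, which leaves 1 residual degree of freedom. The targeted genes were read first. Lats1 stood at 22.2, 29.5, 31.2 and 21.2 CPM and Lats2 at 19.9, 15.3, 6.69 and 22.7 CPM in the endocardial cells. Neither was lower in Lats1/2 CKO at both stages, and their ratios had counting intervals that spanned 1. The files give no reads within the floxed exons, so these levels do not check the deletion. Egfp, the recombined reporter, stood at 13.8, 27.8, 13.4 and 60.5 CPM, and the 4 values in cardiomyocyte-rich cells lay between 11.6 and 24.2 CPM. Without marked cells the endocardial values of Egfp were 12.4, 17.3, 15.1 and 5.26 CPM, so the Lats1/2 CKO E14.5 value was high only with marked cells included. Creert2 had 1, 12, 0 and 1 UMIs in the endocardial cells.

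At an adjusted p under 0.05 (edgeR, Benjamini-Hochberg adjustment), 2 of 10308 genes (0.0194%) were higher and 0 lower in Lats1/2 CKO endocardial cells, with 397 genes at an unadjusted p under 0.05, and DESeq2 called 8 higher and 3 lower. The higher genes were the pseudogenes Rps13-ps1 (7.69 ± 0.39) and Gm11942 (2.57 ± 0.16), whose reads may be shared with their parent genes. Gm11942 was shifted by 2.54 and 2.57 at the 2 stages in endocardial cells, by 2.38 and 2.12 in coronary cells and by 2.90 and 2.33 in cardiomyocyte-rich cells. On simulated data this design recovered 11% of genes changed by 2-fold and 91% of genes changed by 4-fold, so changes of 2-fold were rarely detected there. The simulation gave every gene the same dispersion (0.035) and no stage difference, so these shares need not hold for the real counts. In the real edgeR fit Chrm2 (log2 difference 3.41) and Pla2g7 (2.10) did not pass.

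Over all genes 0.0194% passed this test, so a count of 0 for a list is near that share and says little about the list. Of the Yap and Taz target list 0 of 17 passed, with a median log2 difference of 0.03 against 0.00 over all genes. Ctgf, a classical target, stood at 15.3, 26.7, 35.7 and 42.3 CPM and Cyr61, another, at 141, 78.0, 66.9 and 113 CPM. Ctgf was higher in Lats1/2 CKO at both stages, with counting intervals of the log2 ratio from 0.03 to 1.63 for the E13.5 pair and from -0.69 to 1.23 for the E14.5 pair. Cyr61 was lower at E13.5 (-0.85) and higher at E14.5 (0.75). Yap1 itself stood at 97.1, 69.3, 78.0 and 40.8 CPM. Of the known endocardial genes 0 of 15 passed. Nfatc1 stood at 87.2, 92.2, 100 and 45.4 CPM and Hapln1 at 355, 225, 181 and 96.8 CPM, and Hapln1 was thus lower in Lats1/2 CKO at both stages, with a fitted log2 difference of -0.75 ± 0.16 that did not pass the test. Of the other lists 0 genes passed in edgeR, with medians of -0.49 for the immediate early genes and 1.20 for the globin and other erythroid genes. DESeq2 called Hba-a1 (1.20), Hba-a2 (1.45) and Hbb-bt (2.20) of the erythroid list higher and Hbb-y (-1.52) lower.

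Genes that moved the same way at both stages were named by the smaller of the 2 ratios. Chrm2, the muscarinic M2 receptor, had 3 and 41 UMIs in the control and Lats1/2 CKO endocardial cells of the E13.5 libraries and 1 and 21 in those of E14.5, or 2.29, 22.4, 2.23 and 31.7 CPM. The fitted log2 difference was 3.41 ± 0.57, with an adjusted p of 0.637 in edgeR (Benjamini-Hochberg). Coronary cells held 1 UMI of Chrm2 in all. Pla2g7, a lipid mediator hydrolase, stood at 35.9, 115, 26.7 and 186 CPM (2.10 ± 0.31, adjusted p 0.524 in edgeR with Benjamini-Hochberg adjustment, and 0.0458 in DESeq2), and its coronary log2 ratios were 3.55 and 4.86. Gcnt1, a glycosyltransferase gene, stood at 11.5, 29.5, 6.69 and 42.3 CPM. For these 3 genes the control values lay below the Lats1/2 CKO values, which the choice of genes required within each stage. Hmgn2 moved alike in endocardial, coronary, valve and cardiomyocyte-rich cells at both stages, and the embryonic globin Hbb-y was lower in Lats1/2 CKO at 1353, 453, 1768 and 630 CPM (-1.52 ± 0.16). Since each genotype and stage is 1 library, genotype, embryo and library cannot be told apart within a stage.

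**Figure D4:**
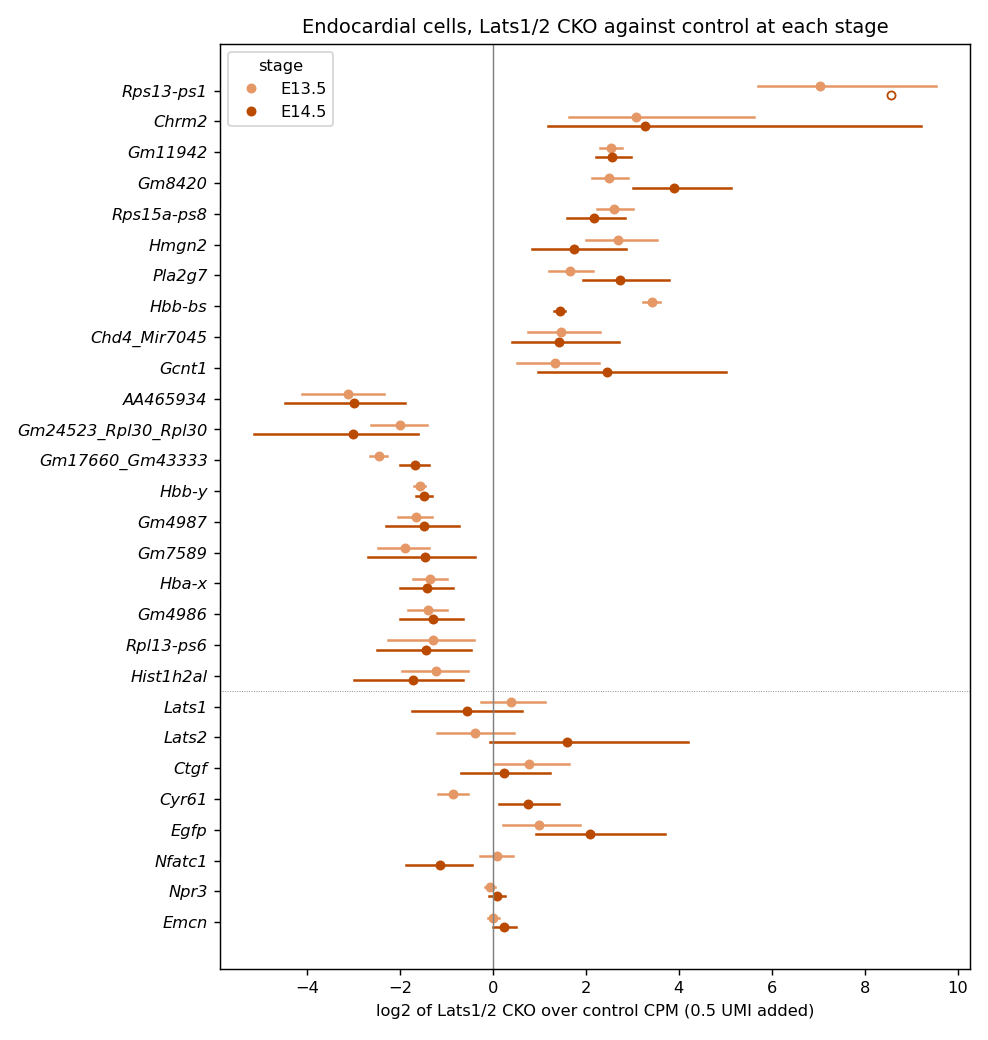
Log2 of Lats1/2 CKO over control CPM (0.5 UMI added) in endocardial cells at E13.5 (light) and E14.5 (dark), with 95% counting intervals, for the 10 genes in each direction with the greatest smaller ratio and, under the dotted line, the targeted and marker genes; an open circle has 0 control UMIs and no interval. Chrm2 and Pla2g7 lie to the right at both stages by the way they were chosen, whereas Lats1, Lats2 and Npr3 stay close to 0 or change side.

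The share of endocardial cells among kept cells was 13.3%, 12.8%, 5.79% and 7.50%. At E13.5 the Lats1/2 CKO share was 0.957 times the control share (95% counting interval 0.859 to 1.07), and at E14.5 it was 1.29 times the control share (1.12 to 1.50). Among endothelial cells only, the shares were 78.7%, 74.8%, 65.8% and 68.7%, and the E14.5 ratio was 1.05 (0.901 to 1.21). With 1 library per group there is no replicate behind these ratios, and the intervals cover counting error only. Thinning every cell to 500 UMIs before the rule gave 8.37%, 7.32%, 3.20% and 4.18%, with ratios of 0.874 and 1.31. Leaving out endocardial cells that held 2 or more markers of another class left 232, 119, 50 and 84 of them. With all kept cells still as the base, the ratio was 0.388 (0.309 to 0.486) for the E13.5 pair. For the E14.5 pair it was 1.65 (1.15 to 2.39).

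**Figure D5:**
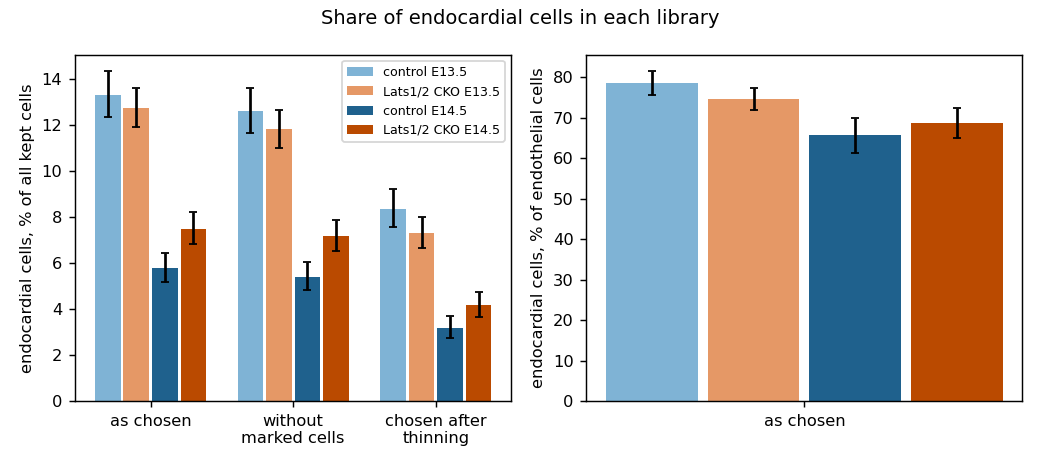
Bars give the endocardial share of all kept cells (left: as chosen, without marked cells, and chosen after thinning to 500 UMIs) and of all endothelial cells (right) in each library, with exact 95% binomial intervals that cover counting error only. The E13.5 libraries lie at 13.3% and 12.8% of kept cells and the E14.5 libraries at 5.79% and 7.50%.

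Between the stages, 43 of 10308 genes (0.417%) were higher and 0 lower at E14.5 in endocardial cells (edgeR, Benjamini-Hochberg adjustment, with 1106 genes at an unadjusted p under 0.05, and 75 higher and 0 lower in DESeq2). The greatest differences were those of the ribosomal protein genes Rps12 (6.16 ± 0.21), Rpl17 (6.05 ± 0.20) and Rpl23a (5.97 ± 0.20). The E14.5 over E13.5 log2 ratios of Rps12 were 6.28 and 5.92 in endocardial cells and 6.43 and 5.84 in cardiomyocyte-rich cells, so the shift was not particular to the endocardium. Stage and library processing cannot be told apart here. Outside the ribosomal protein genes, Ppia (log2 difference 4.04) and Zbed5 (3.99) were among the called genes with the greatest differences. Both were also higher at E14.5 in coronary, valve and cardiomyocyte-rich cells of each genotype. Ankrd1, a Yap and Taz target that cardiomyocytes express strongly, rose from 22.9 and 34.4 CPM to 109 and 130 CPM. Its log2 ratios were smaller, at 2.24 (control) and 1.92 (Lats1/2 CKO). Ttn, a cardiomyocyte sarcomere gene, rose from 42.8 and 51.3 CPM to 212 and 189 CPM. Cardiomyocyte transcripts moved with Ankrd1. The cardiomyocyte list, of which Ttn is a member, summed to 1283 and 1631 CPM in the E13.5 libraries and to 2945 and 3512 CPM in the E14.5 ones. Its median log2 difference was 1.40, against -0.01 over all genes. Of its 13 genes 1 passed, which was Ttn itself. Without marked cells 5 of 12 passed (Myl2, Myl3, Myl7, Tnni3 and Ttn). The part of free or mixed cardiomyocyte RNA in the rise of Ankrd1 and Ttn was not tested. The alpha globin genes Hba-a1 and Hba-a2 rose too. Tgfb3, a TGF-beta ligand, stood at 22.9, 15.3, 4.46 and 3.02 CPM (-2.24 ± 0.60, adjusted p 0.396 in edgeR with Benjamini-Hochberg adjustment) and did not pass. Without marked cells Tgfb3 stood at 7.11, 9.28, 5.03 and 1.75 CPM.

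The genotype effect in endocardial cells was also set against that in coronary cells in 1 fit. This fit and that of the stage effect each left 1 residual degree of freedom, with 1 library per genotype and stage. Of 8985 genes, 9 (0.1%) differed, 1 (0.0111%) with a higher and 8 (0.089%) with a lower effect in endocardial cells. For the stage effect 10 (0.111%) differed, 3 (0.0334%) with a higher and 7 (0.0779%) with a lower effect (edgeR, Benjamini-Hochberg adjustment). DESeq2 called 0 in either, with 12 genes at an unadjusted p under 0.05 in each; edgeR had 390 and 438 such genes. The globin Hbb-y had the smallest adjusted p of the genotype comparison (a log2 difference of -1.91), and without marked cells it did not pass (-0.28). Igfbp5 came next, and its Lats1/2 CKO over control log2 ratios were 0.25 and -0.17 in endocardial cells and 1.35 and 1.23 in coronary cells.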

How the data were processed

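The deposited table held whole-number UMI counts of 30268 genes in 24849 cells. The authors made it with STAR and Picard on mm10, per the submitters' processing notes; filters and annotation are not given in the sources used here. Cells with at least 500 UMIs and at most 20% mitochondrial UMIs were kept. The rule was applied to these counts, and 14 repeated barcodes were left in. No doublet caller was run. Counts were summed per class and library, filtered with filterByExpr, scaled by TMM and tested with edgeR 4.0.16 (R 4.3.3) quasi-likelihood fits and Benjamini-Hochberg adjustment at 0.05; DESeq2 1.42.0 was an alternative. The SE is the absolute log2 difference over the square root of F. Intervals are exact at 95% and cover counting error only. Class fits took the library as a block; genotype and stage fits used the other factor as a term. Per-cell shares were taken after thinning to 500 UMIs. Scripts were tested on simulated data.

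The cells and gene lists were chosen with earlier results of these data known. Named genes are those of the rule and the lists; for class comparisons the 15 greatest log2 differences in each direction with an adjusted p under 0.05, the same sign in all 4 libraries and at least 50 CPM in the higher class; and for genotype and stage up to 15 called genes and the 10 greatest smaller ratios with at least 20 UMIs in each library of the higher side. Alternatives were other scaling, filters and membership settings, and leaving out libraries. The stage effect against coronary cells and the fits without marked cells were added after the data were seen. No paper was used. An item that the naming rule picked is not reported here.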

Additional observations from a re-analysis of the deposited data

Results flagged for a closer look

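For 19 gene effects the genotype or stage effect in endocardial cells differed from that in coronary endothelial cells by edgeR (Benjamini-Hochberg adjustment). This tested the difference itself, in fits that left 1 residual degree of freedom with 1 library per genotype and stage. DESeq2 called none, with 12 genes at an unadjusted p under 0.05 in each comparison. For genotype, the endocardial minus coronary log2 difference was -1.27 for Igfbp5, -1.25 for the neuropeptide gene Nts, -2.53 for Bex1, -0.89 for Igfbp3, -0.96 for Sparcl1 and 1.16 for the secreted factor Ptn. The Ptn value joins stages that went opposite ways. Its Lats1/2 CKO over control log2 ratios at E13.5 and E14.5 were -0.39 and -0.06 in endocardial cells. In coronary cells they were 0.85 and -2.73. The globin genes gave -1.91 for Hbb-y, -1.47 for Hba-x and -0.97 for Hba-a2. Without marked cells Hba-x gave 0.12 and Hbb-y -0.28, and neither passed. Nts stood at 304, 189, 506 and 150 CPM in endocardial cells and at 318, 336, 284 and 307 CPM in coronary cells, so the endocardial value was the lower one in the Lats1/2 CKO library at both stages; valve cells had 786, 339, 781 and 159 CPM.

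For stage, the difference was 1.38 for Igfbp3, -1.85 for Ptn, -1.39 for the lectin Lgals9, 1.89 for S100a6, -3.51 for Lsp1, -1.01 for Apold1, -0.99 for Col3a1 and 1.58 for Ankrd1, and -1.32 and -1.83 for the globins Hbb-y and Hba-x. The E14.5 over E13.5 log2 ratios of Ptn were -0.22 (control) and 0.11 (Lats1/2 CKO) in endocardial cells and 3.52 and -0.06 in coronary cells. Those of Col3a1 were -0.02 and 0.09 in endocardial cells and 2.57 and -0.67 in coronary cells. For both genes the order of the classes thus differed between the genotypes. Hbb-y gave 0.27 without marked cells, and Col3a1 gave 4.06 without cells that held 2 or more markers of another class. S100a6 stood at 25.2, 49.1, 66.9 and 251 CPM in all endocardial cells and at 16.0, 11.1, 12.6 and 12.3 CPM in the unmarked ones. Red cell and marked cell transcripts moved with several of these genes, and their part was not tested.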

How the results depend on the processing

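All 372 alternative values of the named genes against coronary cells kept their direction and call, and against valve cells 354 did while 5 lost the call and kept the direction. A gene too low to be tested in an alternative gave no value there and is not counted. Asking for at least 300 genes per cell kept the same 2091 endocardial cells, so its values could not differ. DESeq2 gave 885 higher and 942 lower genes against coronary cells and 150 and 286 against valve cells. Without the library block there were 907 and 781, and 95 and 186. Keeping only the cells with fewer than 2 markers of any other class (485 endocardial cells) left 252 and 200, and 60 and 63, with far fewer genes tested. Leaving out each library in turn gave 1161 to 1592 higher and 1167 to 1502 lower genes against coronary cells, and 155 to 300 and 241 to 427 against valve cells.

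For genotype, DESeq2 gave 8 higher and 3 lower genes, and at least 3 set genes 9 and 11. No filter on low counts gave 0 and 0, no stage term 1 and 0, and cells without other markers 3 and 4. For stage, DESeq2 gave 75 higher and 0 lower, no filter 0 and 0, at least 3 set genes 112 and 8, and cells without other markers 54 and 4. For the genotype effect against coronary cells, DESeq2 gave 0 higher and 0 lower, no filter 0 and 5, and at least 3 set genes 4 and 11. Cells without other markers gave 0 and 1, leaving out marked cells 2 and 7, and counting distinct genes in the rule 2 and 10. For the stage effect against coronary cells, DESeq2 gave 0 higher and 0 lower, no filter 2 and 4, and at least 3 set genes 8 and 4. Cells without other markers gave 0 and 0, leaving out marked cells 2 and 3, and counting distinct genes 3 and 2. Without marked cells the genotype effect of Hba-x turned to 0.12 and the stage effect of Hbb-y to 0.27, and without cells of other markers the stage effect of Col3a1 turned to 4.06; the cause was not tested.

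The share ratio at E13.5 was 0.388 when endocardial cells with 2 or more markers of another class were not counted. The base was still all kept cells, so this is not a share among cells without other markers. At E14.5 the ratio was 1.65 in that setting, 1.05 among endothelial cells and 1.10 among endothelial cells after thinning. Depth differs between libraries and decides which cells reach 2 markers or 2 set genes. No paired analysis was possible because the labels carry no replicate numbers that groups share and each group is 1 library. The genotype and stage fits were not rerun without a library, since no residual degrees of freedom would remain.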

Other observations

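Of the 3 tested genes of a list of lymphatic endothelial genes, 2 were higher than in coronary cells and Flt4 was lower (-1.24, edgeR). The summed list stood at 112, 127, 123 and 109 CPM in endocardial cells and at 139, 105, 125 and 111 CPM in coronary cells. Prox1, the lymphatic master regulator, stood at 29.8, 27.3, 55.7 and 37.8 CPM, against 6.17, 1.71, 28.4 and 14.2 CPM in coronary cells (log2 difference 1.77 ± 0.35) and 99.1, 63.0, 61.6 and 102 CPM in valve cells (-1.24 ± 0.25), so the endocardial level lay between the others. Lyve1, a hyaluronan receptor, stood at 18.3, 58.9, 29.0 and 43.8 CPM and was higher than in coronary cells by 2.20 ± 0.42 (edgeR). Of 20 pan-endothelial genes tested outside the rule, 5 were higher and 11 lower than in coronary cells, with a median log2 difference of -0.48. Over all genes tested in this comparison 19.5% were higher and 18.3% lower. The arterial factor Sox17 stood at 39.8, 13.6, 20.1 and 9.07 CPM, against 268, 199, 165 and 134 CPM in coronary cells (-3.25). Robo4, a guidance receptor of vessel endothelium, stood at 23.7, 17.5, 22.3 and 18.1 CPM, against 126, 115, 73.9 and 145 CPM (-2.51).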
